A study of Mus musculus with 16 samples.

Results

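This account concerns how the effect of oxygen-induced retinopathy (OIR) on the mouse retina differed between postnatal day 17 (P17) and postnatal day 30 (P30). It rests on the 12 retina libraries of those ages among 16 libraries in the series, and on the 18854 of 43280 listed genes that passed a count filter. For each gene the OIR effect at an age was the log2 fold change of OIR over control retina of that age, and the difference between ages was the P30 effect minus the P17 effect. All mice were wildtype C57BL/6J. OIR mice breathed 75% oxygen from postnatal day 7 to day 12 and room air (21% oxygen) afterwards, while control mice stayed in room air throughout. The 4 groups were control P17, OIR P17, control P30 and OIR P30, with 3 libraries each. The labels do not say whether each library came from a separate animal or from pooled retinas, so p-values measure the spread between these libraries, which may be partly technical.

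In the OIR model, high oxygen stops the growth of retinal capillaries and removes part of those already formed, and once the mice breathe room air again the inner retina lacks oxygen. Hypoxia-inducible factors then raise growth factors such as VEGF, and abnormal new vessels grow towards the vitreous around P17. These vessels later regress while normal capillaries return, which is why P17 and P30 are usually taken as the proliferative and the regressed stage. Müller glia, the main glial cells of the retina, and microglia respond during the same weeks.

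Library totals ran from 27158710 to 41716971 reads assigned to genes in these 12 libraries. Rod genes, the defining markers of retina, made up 7.70% to 13.3% of reads in every library. Crystallins and other lens genes, which mark lens tissue carried over at dissection, made up 0.0342% to 0.624% of reads in control P17, 8.24%, 6.00% and 0.359% in the 3 OIR P17 libraries, 5.33% to 8.35% in control P30 and 3.31% to 7.69% in OIR P30. Of the 22 lens genes, only Lenep was at 0 in every group. Sex RNAs also divided the groups. All 3 control P17 and all 3 control P30 libraries held reads of the Y-linked gene Ddx3y, at 24.8 to 36.3 reads per 1000000 reads of the library total (CPM). All 3 OIR P17 libraries had 0 or 1 such read and 114 to 175 CPM of Xist, which silences an X chromosome in female cells. OIR P30 replicate 2 was of the Xist kind (92.7 CPM) and the other OIR P30 libraries were of the Ddx3y kind. At P17, sex therefore moved together with OIR, and both cannot be told apart within that age. From P17 to P30 sex also moved with age in OIR retina, while control retina kept the Ddx3y kind. A fit with Y-linked reads as a covariate takes its estimate of sex from a single OIR P30 library. It left 80 genes with a higher effect at P30 and 78 with a lower one.

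The OIR effect differed between the ages in 1518 genes, which is 8.05% of those tested, by edgeR's quasi-likelihood test at a Benjamini-Hochberg adjusted p under 0.05. In 835 genes (4.43%) the effect was higher at P30 and in 683 (3.62%) it was lower. Differences over 2-fold were mostly of the second kind, with 320 genes lower and 154 higher. OIR changed 2632 genes at P17 (14.0%), of which 1532 were higher in OIR (8.13%) and 1100 were lower (5.83%). At P30 it changed 1232 genes (6.53%), 751 higher (3.98%) and 481 lower (2.55%). The genes called at both ages numbered 265, which is 10.1% of the P17 calls and 21.5% of the P30 calls. Of these, 198 had the same sign at both ages and 67 had opposite signs. Across the 18854 genes the effects at the 2 ages, which share no library, had a Pearson correlation of 0.193 and a Spearman correlation of 0.0860. This is a description across genes, which are not independent replicates.

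Genes were sorted by which of the 3 comparisons called them, so the class names below restate those calls and are no further evidence. An effect called at P17, called as smaller or turned at P30, and no longer called at P30 was termed resolved. There were 824 resolved genes, 408 higher and 416 lower in OIR at P17. The 408 had a median effect of 1.15 at P17 and -0.08 at P30 on the log2 scale, and the 416 had medians of -0.52 and 0.18. Persistent genes, called with the same sign at both ages and with no called difference, numbered 183 (148 higher, 35 lower). A further 14 genes were higher at both ages with a called reduction at P30, and 1 gene, Dio2, was lower at both ages with a called growth of the effect. Late genes, called at P30 with a called difference and not called at P17, numbered 352 (200 higher, 152 lower). In 67 genes the effect reversed, from higher to lower in 18 and from lower to higher in 49. Another 260 genes had a called difference with neither age called alone. For 1543 genes called only at P17 and 615 called only at P30 the difference was not called, so the data do not separate resolved or late from persistent there. Among the 824 resolved genes, 526 had a P30 effect whose 95% interval lay inside 1.5-fold. Among the 183 persistent genes, 76 had a difference whose interval lay inside 1.5-fold.

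Which library is left out changed these counts by more than 1.5-fold, and control P30 libraries most of all. Without control P30 replicate 1 there were 65 late, 23 persistent and 10 reversed genes. Without control P30 replicate 2 there were 40, 10 and 5, and without control P30 replicate 3 there were 112, 47 and 11. The resolved count ranged from 462, without control P17 replicate 2, to 1233, without OIR P30 replicate 3. No named gene with a called difference changed the sign of that difference in any of these fits.

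**Figure D1:**
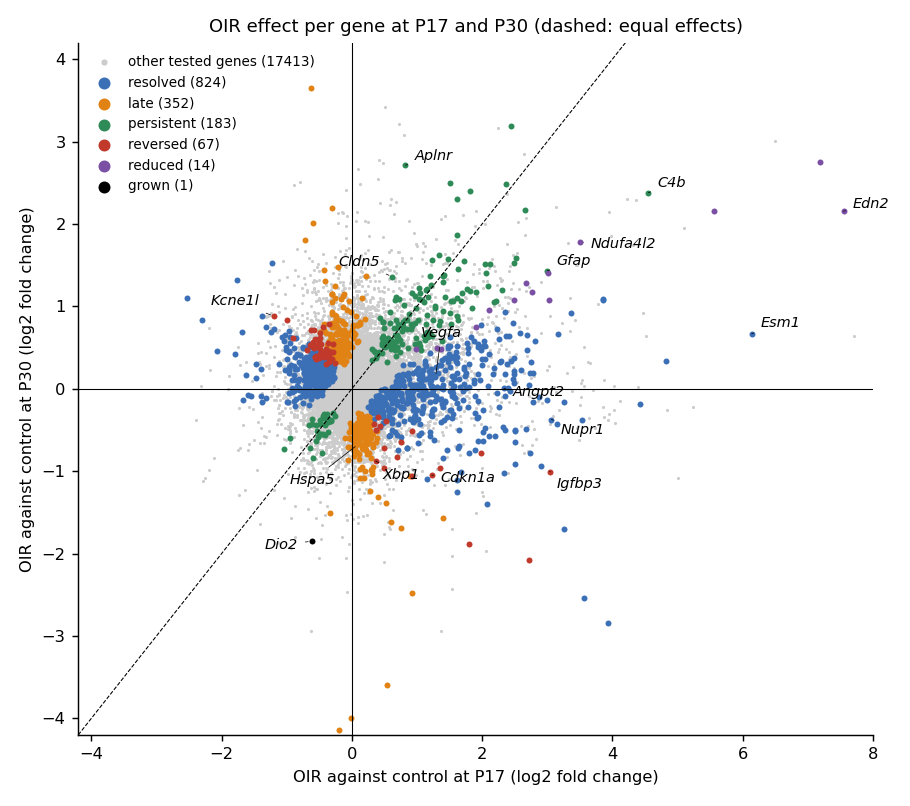
Each point is a tested gene, with its OIR effect at P17 on the x axis and at P30 on the y axis, both as log2 fold change, coloured by class (8 tested genes fall outside the axes). Resolved genes lie along the horizontal axis, late genes along the vertical axis, and the 67 reversed genes in the upper left and lower right, where Igfbp3 is labelled.

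The difference between ages equals the change from P17 to P30 in OIR retina minus the change in control retina, so either side can carry it. OIR retina changed with age in 8221 genes (43.6%) and control retina in 5274 (28.0%). Of the 408 genes resolved from higher, 288 fell with age in OIR retina, and in 208 of these the change in control retina was not called. In 100 of the 408 the fall was not called in OIR and the control level rose instead. Of the 416 resolved from lower, 333 rose with age in OIR retina, and 70 had a fall in control retina with no called change in OIR. Of the 200 late higher genes, 147 rose in OIR retina and 45 fell in control retina with no called change in OIR. Of the 152 late lower genes, 111 fell in OIR retina and 29 rose in control retina with no called change in OIR. By these calls OIR retina changed with age in most of these genes, and in a minority only the control level had a called change. Only some of the examples below state which, and a lower effect at P30 need not mean a fall in OIR retina. A change that was not called is not shown to be absent. Every OIR P17 library was of the Xist kind and most OIR P30 libraries were not. Age and sex therefore cannot be fully told apart in the OIR change.

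**Figure D2:**
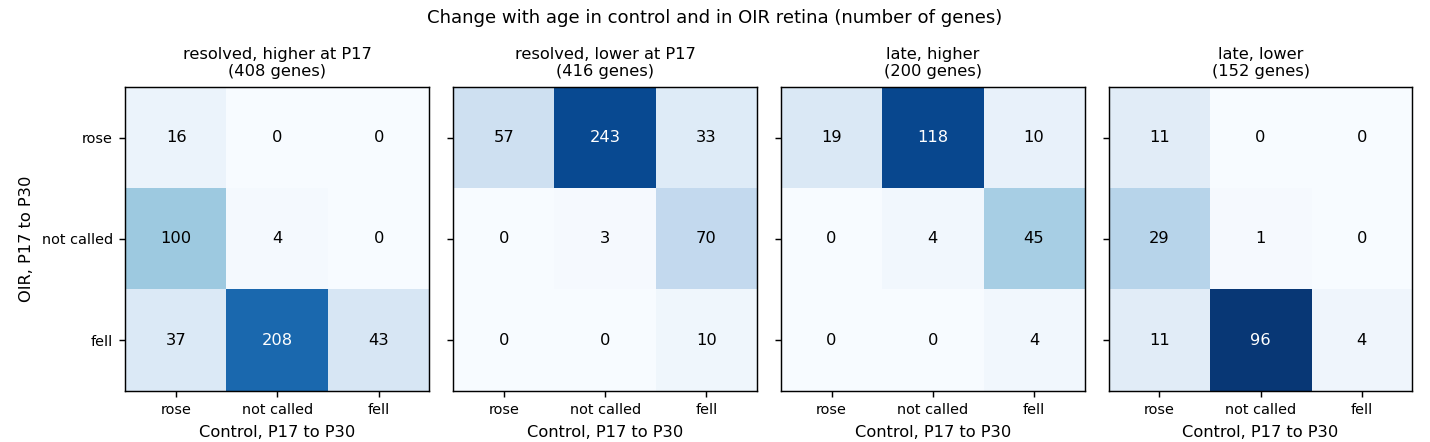
For 4 classes, the number of genes whose level rose, fell or was not called between P17 and P30 in control retina (x axis) and in OIR retina (y axis). The largest cells are those in which OIR retina moved and control retina was not called, with 208, 243, 118 and 96 genes.

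Hypoxia-inducible genes were raised in OIR at P17 and most were no longer called at P30. Of 28 tested members, 21 were higher in OIR at P17 and none lower, against 4 higher at P30. Among all tested genes 8.13% were higher at P17 and 3.98% at P30. The effect was lower at P30 in 15 members and higher in 1 (3.62% and 4.43% of all tested genes). The median difference was -0.76 against -0.02 over all tested genes. Vegfa, the main growth factor of retinal vessels, had 133, 121 and 126 CPM in the control P17 libraries and 334, 236 and 355 CPM in the OIR P17 libraries. The P30 values were 142, 128 and 151 CPM in control and 188, 154 and 121 CPM in OIR. All OIR libraries were above all controls at P17, and the groups overlapped at P30. Such separation, in either direction, held in 33.5% of all tested genes at P17 and in 30.7% at P30. These shares apply wherever groups are said to be apart. The effect was 1.28 at P17 (adjusted p = 0.000158) and 0.14 at P30 (adjusted p = 0.605, edgeR), and the difference was -1.14 (SE 0.225, 95% interval -1.62 to -0.66, adjusted p = 0.00988). Egln3, a prolyl hydroxylase that marks the hypoxia-inducible factor for destruction and is itself induced by it, had 3.37, 3.99 and 4.46 CPM in control and 21.2, 13.3 and 25.6 CPM in OIR at P17. By P30 it stood at 4.74, 5.80 and 6.40 CPM in control and 5.27, 6.60 and 7.39 CPM in OIR. Its groups did not overlap at P17 and overlapped at P30, and its difference was -2.17 (SE 0.308, adjusted p = 0.0016, edgeR).

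The remaining hypoxia genes show that the fall of the effect was unequal. Adm, the vasodilator peptide adrenomedullin, had an effect of 3.86 at P17 and 1.07 at P30, with a difference of -2.79 (adjusted p = 0.0144, edgeR). Ero1l, an oxidase of the endoplasmic reticulum, went from 1.25 to -0.02, Bnip3, which acts in mitophagy, from 1.20 to 0.07, and P4ha1, a collagen prolyl hydroxylase, from 0.57 to -0.35. The difference was called in each. For P4ha1 the control level rose with age by 0.60 on the log2 scale and the OIR level fell by 0.32. Ndufa4l2, a mitochondrial protein induced by hypoxia, had 9.09, 10.9 and 9.85 CPM in control and 114, 85.3 and 139 CPM in OIR at P17. At P30 it had 5.84, 8.70 and 10.96 CPM in control and 22.4, 30.2 and 35.0 CPM in OIR, and the groups were apart at both ages. Its effect was reduced from 3.500 to 1.78 (adjusted p at P30 = 0.00381, edgeR). Epo, which encodes erythropoietin, was higher in OIR at both ages, by 2.45 and 3.18, at low levels of 1.24, 0.666 and 1.497 CPM in OIR P17 and 0.606, 0.302 and 0.306 CPM in OIR P30. Its difference of 0.74 had a 95% interval of -1.20 to 2.67 and was not called. The P30 call of Epo was lost without any 1 of the 3 control P30 libraries or OIR P30 replicate 1, with effects from 2.74 to 3.56. Ddit4, an inhibitor of mTOR signalling and the only member with a called higher difference, went from 0.10 to 0.78 and is named after its values were seen. With the Y-linked covariate 2 members were called lower at P30, and Egln3 kept its call while Vegfa and Bnip3 lost theirs.

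The promoters of Egln3 and Bnip3 are shown because they are the hypoxia-list members with the smallest p for the difference whose 250 bases before the start hold the core hypoxia response motif. Sequences are from RefSeq (GRCm38.p6), 5′ to 3′ along the gene's strand, with ACGTG on either strand in capitals. The Egln3 promoter is chr12:54203875-54204124 and that of Bnip3 is chr7:138909507-138909756, both on the minus strand.
Egln3: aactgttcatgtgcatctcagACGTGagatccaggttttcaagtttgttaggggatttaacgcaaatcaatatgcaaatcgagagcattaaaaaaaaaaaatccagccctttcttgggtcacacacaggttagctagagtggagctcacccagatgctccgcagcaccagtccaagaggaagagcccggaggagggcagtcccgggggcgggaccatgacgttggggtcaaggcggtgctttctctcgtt
Bnip3: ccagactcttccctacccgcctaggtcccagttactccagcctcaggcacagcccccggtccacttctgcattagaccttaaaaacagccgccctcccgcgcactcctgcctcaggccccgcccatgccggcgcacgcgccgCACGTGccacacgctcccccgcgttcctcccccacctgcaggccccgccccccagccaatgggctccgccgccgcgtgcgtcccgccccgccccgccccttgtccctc
The Egln3 match begins 229 bases before the start. In Bnip3 the matches of the 2 strands overlap and together spell the palindrome in capitals, beginning 108 bases before the start. ACGTG was present in 16 of the 24 hypoxia members that had a promoter in the table, among them 9 of the 12 members with a called difference, and in 51.4% of the 35 promoters of these members against 16.6% of all 32851 promoters of the same length, since a gene can have several promoters. A match describes the letters and is no evidence that a factor binds there.

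Genes of angiogenic tip cells and of the vessel wall were raised in OIR at P17, and part of them had a lower effect at P30. Of 22 tip cell and angiogenic genes, 18 were higher in OIR at P17 and 3 at P30 (8.13% and 3.98% of all tested genes). The effect was lower at P30 in 9 and higher in 1 (3.62% and 4.43% of all tested genes), with a median difference of -0.84. Angpt2, a ligand of the Tie2 receptor that loosens vessels, had 7.13, 8.25 and 6.11 CPM in control and 41.6, 23.5 and 43.4 CPM in OIR at P17. The P30 values were 3.49, 4.07 and 5.50 CPM in control and 4.06, 4.76 and 4.24 CPM in OIR. OIR libraries were all above control at P17 and overlapped control at P30. The effects were 2.33 and 0.00, a difference of -2.33 (SE 0.32, adjusted p = 0.0016, edgeR). Apln, the tip cell peptide apelin, had an effect of 3.36 at P17 and 0.91 at P30 (adjusted p at P30 = 0.0562, edgeR), and its OIR libraries stayed above the control libraries at P30, at 4.94, 7.17 and 7.87 against 3.45, 3.75 and 3.31 CPM. Esm1, a tip cell proteoglycan, had 10.2, 5.04 and 12.8 CPM in OIR P17 and at most 0.306 CPM in any library of the other groups, with a difference of -5.47 (SE 1.33, adjusted p = 0.0254, edgeR). The Esm1 call was lost without control P17 replicate 2 or without any of the 3 control P30 libraries, where its difference ran from -6.23 to -4.87. Mcam, an adhesion molecule of endothelial cells and pericytes, went from 2.00 to 0.37. With the Y-linked covariate 5 tip cell members were called lower and none higher, and Esm1 lost its call.

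Of 20 endothelial genes, 13 were higher in OIR at P17 and 3 at P30 (8.13% and 3.98% of all tested genes). The difference was called lower in 6 and higher in 1 (3.62% and 4.43% of all tested genes). Pecam1, an adhesion molecule between endothelial cells, went from 1.13 to 0.11 and Emcn, a sialomucin of capillaries and veins, from 1.64 to -0.70. Slco1a4, an organic anion transporter of the blood-retina barrier, was the member with a called higher difference, at -0.59 and 0.30. Its call was lost in 12 of 26 settings, including the lens covariate and the fits without any 1 of the 3 control P17 libraries, OIR P17 replicate 3, control P30 replicate 1, control P30 replicate 2 or OIR P30 replicate 2, where its difference ran from 0.73 to 1.03. In bulk retina, fewer cells of a type and less RNA per cell cannot be told apart. With lens share as a covariate 1 endothelial member was called lower and 1 other than Slco1a4 higher, and with the Y-linked covariate none was called. Of 12 pericyte and smooth muscle genes, 9 were higher in OIR at P17 (8.13% of all tested genes) and none at P30. A lower effect at P30 was called in 5, against 3.62% of all tested genes. Acta2, smooth muscle actin, had 4.72, 5.91 and 6.90 CPM in control and 57.6, 28.2 and 34.2 CPM in OIR at P17, then 20.8, 32.5 and 24.0 CPM in control and 17.3, 32.3 and 19.7 CPM in OIR at P30. The control level rose with age by 2.15 on the log2 scale (adjusted p = 0.000948, edgeR), and the change of OIR retina, -0.79, was not called. Des, the filament protein desmin, went from 2.41 to 0.64, and Tagln, an actin-binding protein of smooth muscle, from 2.47 to 0.79. Adding the Y-linked covariate left 2 pericyte members called lower, and Des and Tagln lost their calls.

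Cldn5, the tight junction protein of the blood-retina barrier, had 67.7, 102 and 74.4 CPM in control and 151, 127 and 96.3 CPM in OIR at P17. By P30 it stood at 22.3, 20.8 and 23.2 CPM in control and 48.5, 58.3 and 63.5 CPM in OIR. The groups overlapped at P17 and were apart at P30, and Cldn5 was called higher in OIR at both ages (0.62 and 1.36, adjusted p = 0.0243 and 0.00309, edgeR). Its difference of 0.74 (95% interval 0.22 to 1.25, adjusted p = 0.0731, edgeR) was not called. Aplnr, the apelin receptor, had 0.157, 0.205 and 0.209 CPM in control and 0.999, 1.51 and 1.31 CPM in OIR at P30, against 9.73, 12.5 and 9.81 and 25.5, 21.1 and 10.2 CPM at P17. Its level fell with age by 5.79 on the log2 scale in control and by 3.90 in OIR. The effects were 0.82 and 2.71, and the difference of 1.89 (SE 0.554, adjusted p = 0.0512, edgeR) lay just outside the threshold. The P30 call of Aplnr was lost without control P30 replicate 1 or 2. Kdr, the VEGF receptor VEGFR2, was the tip cell list member with a called higher difference, going from -0.10 to 0.67, and is named after its values were seen.

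In 18 genes the effect reversed from higher to lower. Igfbp3, at chr11:7206086-7213923 in GRCm38, encodes an insulin-like growth factor binding protein. It had 4.79, 5.36 and 4.86 CPM in control and 46.6, 31.9 and 44.7 CPM in OIR at P17, then 5.68, 4.33 and 4.25 CPM in control and 2.15, 2.68 and 2.27 CPM in OIR at P30. OIR libraries were all above control at P17 and all below at P30. The effect turned from 3.04 (adjusted p = 1.08e-07) to -1.005 (adjusted p = 0.0103; difference -4.04, SE 0.238, adjusted p = 4.91e-07, edgeR), and here OIR retina carried the change, falling by 4.11 on the log2 scale while the control change of -0.07 was not called.

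Cdkn1a, the cell cycle inhibitor p21, had 9.44, 13.3 and 10.7 CPM in control and 30.0, 17.6 and 30.6 CPM in OIR at P17, then 13.8, 11.9 and 14.3 CPM in control and 4.36, 7.47 and 7.65 CPM in OIR at P30. All OIR libraries were above control at P17 and below at P30, with effects of 1.23 and -1.05 and a difference of -2.27 (SE 0.33, adjusted p = 0.00244, edgeR). Among 18 cell cycle inhibitor and p53 target genes the difference was called lower in 3, against 3.62% of all tested genes. They included Cdkn1a and Pmaip1, which encodes the pro-apoptotic protein Noxa. The Pmaip1 call was lost without control P30 replicate 1, with the lens covariate and with the Y-linked covariate. Eif4ebp1, a repressor of cap-dependent translation, turned from 1.98 to -0.78, and its control level rose with age by 1.73. Angptl2, a secreted angiopoietin-like protein, turned from 1.36 to -0.96. Tac1, the substance P precursor, had 23.4, 22.2 and 24.3 CPM in control and 43.4, 39.5 and 49.1 CPM in OIR at P17, then 24.4, 27.6 and 29.5 CPM and 19.4, 19.3 and 18.4 CPM at P30, and turned from 0.92 to -0.51. The difference of Igfbp3, Cdkn1a, Eif4ebp1 and Tac1 stayed called under all 26 alternative settings, including lens share and Y-linked reads as covariates, while that of Angptl2 was lost when all 16 libraries were fitted.

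**Figure D3:**
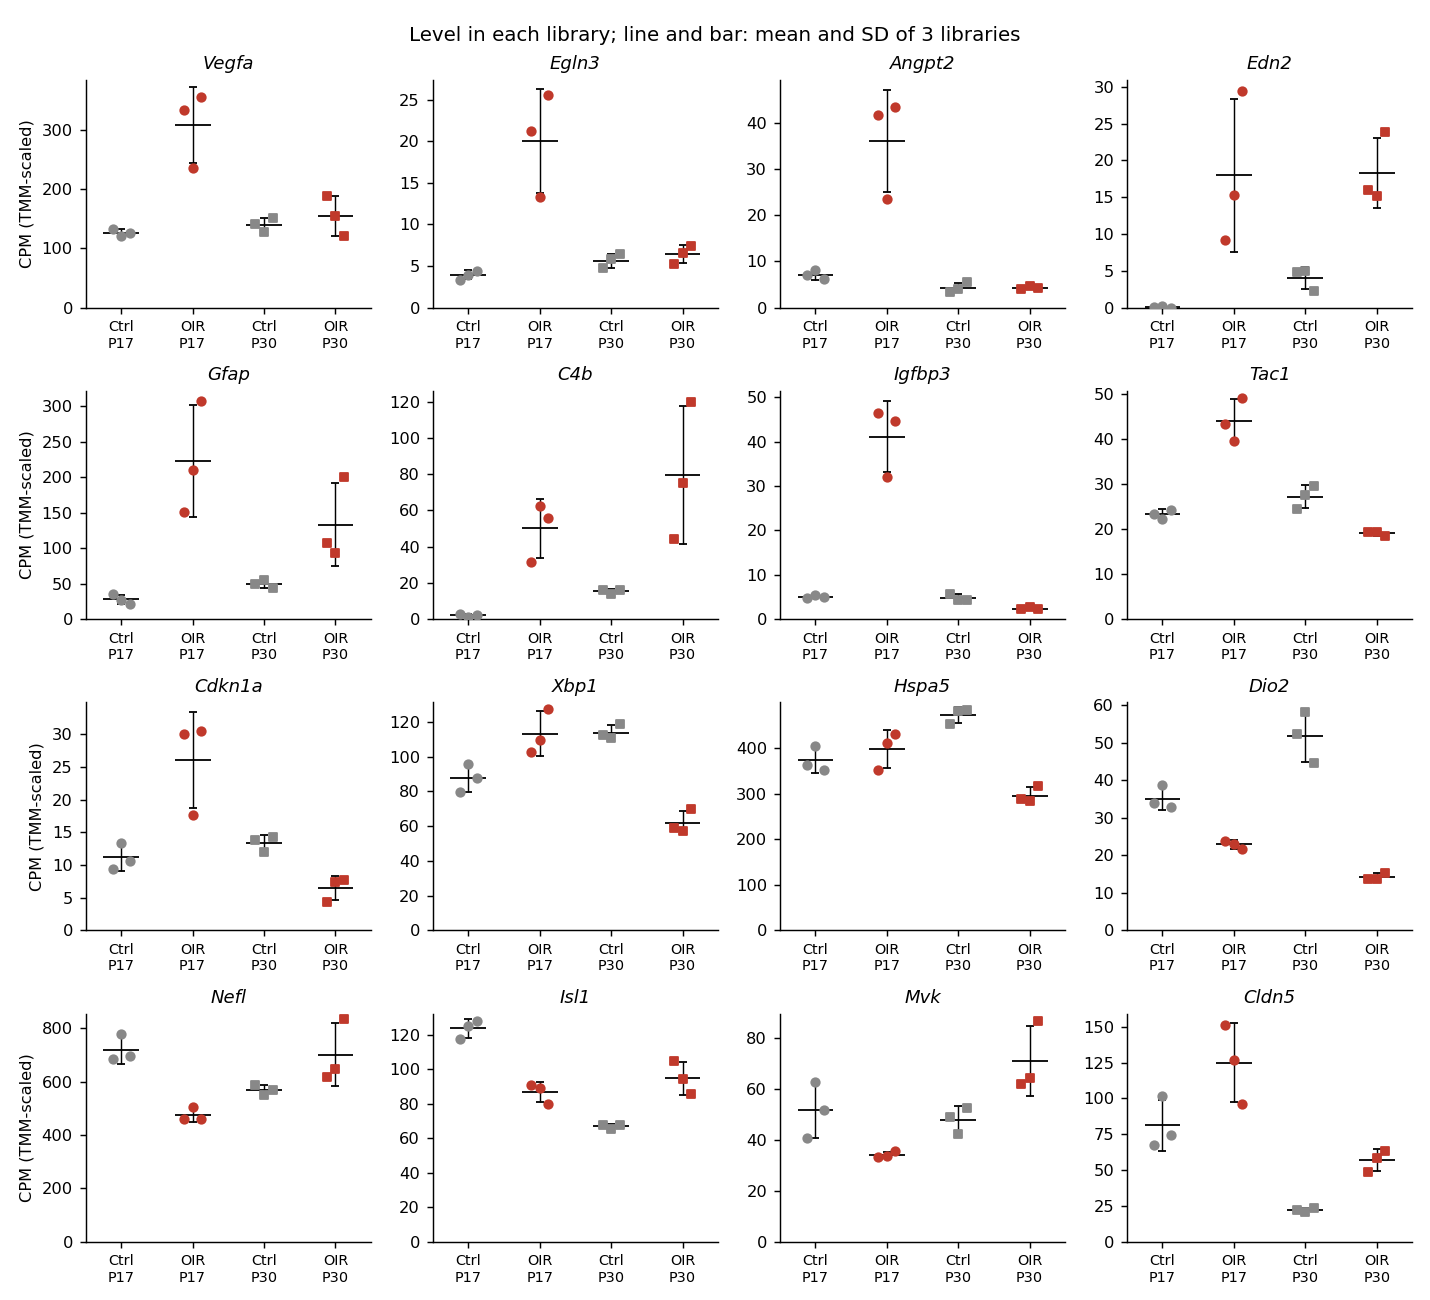
CPM scaled by TMM in each of the 12 libraries for 16 genes, with grey points for control, red points for OIR, and the mean and SD of 3 libraries. Vegfa, Egln3 and Angpt2 separate at P17 alone, Igfbp3, Tac1, Cdkn1a and Xbp1 change order, Hspa5 separates at P30 alone, and Dio2 is lower in OIR at both ages.

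Among chaperones and folding enzymes of the endoplasmic reticulum, every called difference was towards a lower effect at P30, by edgeR and by DESeq2. The unfolded protein response raises them when secretory proteins misfold. Of 20 tested members, 4 were higher in OIR at P17 and none lower, while at P30 none was higher and 9 were lower. Among all tested genes 8.13% were higher at P17 and 2.55% lower at P30, and 3.62% had a lower effect at P30. The effect was lower at P30 in 12 members and higher in none (median difference -0.67), and 6 of the 20 were late and 2 reversed. Xbp1, a transcription factor of this response, had 79.9, 95.9 and 87.9 CPM in control and 102, 109.7 and 128 CPM in OIR at P17, then 112, 111 and 119 CPM in control and 58.7, 57.4 and 69.7 CPM in OIR at P30. Its OIR libraries were all above control at P17 and all below at P30. The effect turned from 0.37 (adjusted p = 0.0311) to -0.88 (adjusted p = 0.00274, edgeR), a difference of -1.24 (SE 0.15, 95% interval -1.56 to -0.92). Hsp90b1, the chaperone GRP94, turned from 0.37 to -0.50 (difference -0.87, SE 0.12, adjusted p = 0.0013, edgeR). Hspa5, the chaperone BiP, had 363, 404 and 351 CPM in control and 351, 412 and 431 CPM in OIR at P17 and did not separate. At P30 it had 452, 481 and 483 CPM in control and 288, 283 and 316 CPM in OIR, with all OIR libraries below control and an effect of -0.68 (adjusted p = 0.00449, edgeR). In OIR retina Hspa5 fell with age by 0.43 while control rose by 0.34. Manf, a secreted neurotrophic factor induced by the same stress, went from 0.23 to -0.67 (difference -0.89, adjusted p = 0.00444, edgeR). With the Y-linked covariate 3 members were called lower and none higher, and Xbp1 and Hsp90b1 kept their calls while Hspa5 and Manf lost theirs.

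The promoters of Hsp90b1 and Hspa5 are shown because they are the members of this list with the smallest p whose 250 bases before the start hold the endoplasmic reticulum stress element, CCAAT and CCACG with 9 bases between them. RefSeq places them in GRCm38.p6 at chr10:86705445-86705694 on the minus strand and chr2:34771840-34772089 on the plus strand. The element, searched on both strands, is in capitals.
Hsp90b1: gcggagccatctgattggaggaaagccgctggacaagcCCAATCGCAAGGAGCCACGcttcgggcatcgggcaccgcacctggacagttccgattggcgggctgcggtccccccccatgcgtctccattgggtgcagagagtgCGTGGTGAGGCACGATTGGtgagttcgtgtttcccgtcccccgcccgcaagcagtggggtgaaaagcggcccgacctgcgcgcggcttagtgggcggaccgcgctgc
Hspa5: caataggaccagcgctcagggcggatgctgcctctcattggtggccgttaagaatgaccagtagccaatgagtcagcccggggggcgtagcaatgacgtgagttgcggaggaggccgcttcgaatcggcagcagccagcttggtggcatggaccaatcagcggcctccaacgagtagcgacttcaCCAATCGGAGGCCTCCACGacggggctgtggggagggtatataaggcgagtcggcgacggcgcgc
Hsp90b1 holds 2 matches, which begin 212 and 107 bases before the start, and Hspa5 holds 1, which begins 65 bases before it. The element was found in 8 of the 17 list members with a promoter, among them 6 of the 10 with a called difference, and in 47.1% of the 17 member promoters against 37 of all 32851 promoters (0.113%). For comparison, the AP-1 motif TGANTCA was in none of the 22 promoters of 16 immediate early genes and in 6.75% of all promoters. The STAT motif TTCNNNGAA was in 5.56% of the 18 promoters of 17 glial reactivity genes and in 7.02% of all promoters. These letters alone say nothing of which factor acted.

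Neighbouring stress pathways also held members with a lower effect at P30. Of 16 amino acid stress genes of the ATF4 pathway, 8 were higher in OIR at P17 and 1 lower at P30, and 6 had a lower effect at P30. The shares of all tested genes were 8.13%, 2.55% and 3.62%. Mthfd2, a mitochondrial folate enzyme, was late, at 0.38 and -0.59. Ddit3, the transcription factor CHOP, went from 0.56 to -0.22, and Chac1, a glutathione-degrading enzyme, from 0.66 to -0.53. Of 13 heat shock chaperones, 3 had a lower effect at P30. Hsph1, a partner of HSP70, was late at -0.06 and -0.87, as was Hsp90aa1, the inducible cytosolic HSP90, at 0.25 and -0.40. Hsp90aa1 also lost its call without control P17 replicate 3, OIR P17 replicate 3, control P30 replicate 2 or control P30 replicate 3, Ddit3 without control P30 replicate 3, and Chac1 without OIR P17 replicate 3 or control P30 replicate 2. The fit with the Y-linked covariate called 2 amino acid stress genes lower. None of the 13 was called with either the lens share or the Y-linked reads as covariate.

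Of 19 tested glial reactivity genes, all were higher in OIR at P17 and 5 at P30 (8.13% and 3.98% of all tested genes). The list was chosen with earlier results of these data known, so these counts are a description. In 9 the effect was lower at P30 (3.62% of all tested genes), and the median difference was -1.44. Gfap, the filament protein of reactive Müller glia and astrocytes, had 34.8, 26.9 and 21.5 CPM in control and 151, 209.8 and 307 CPM in OIR at P17. The P30 values were 49.96, 54.7 and 43.2 CPM in control and 106, 92.9 and 199.9 CPM in OIR, and the groups were apart at both ages. The effect was 3.00 at P17 and 1.43 at P30 (adjusted p = 0.0408), and the difference of -1.57 (SE 0.477, 95% interval -2.64 to -0.50, adjusted p = 0.0752, edgeR) was not called. The P30 call of Gfap was lost in 13 of 27 settings, including the Y-linked covariate and 7 of the 12 fits that left out 1 library, with effects from 1.02 to 1.63 (control P17 replicate 2 or 3, OIR P17 replicate 2, any control P30 library, or OIR P30 replicate 3). Stat3, a transcription factor of cytokine signalling, went from 1.08 to 0.20, Nes, the filament protein nestin, from 1.596 to 0.33, and Cd44, a hyaluronan receptor, from 1.40 to -0.00. The control level of Cd44 rose with age by 1.11, and its OIR change of -0.29 was not called. Cp, the iron oxidase ceruloplasmin, went from 1.07 to 0.08 and was the 1 member called with the Y-linked covariate.

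Endothelin 2, encoded by Edn2 and made by stressed photoreceptors, had the largest called reduction among the 14 genes that were higher at both ages. It had 0.0983, 0.165 and 0 CPM in control and 9.25, 15.3 and 29.5 CPM in OIR at P17, then 4.87, 5.04 and 2.33 CPM in control and 16.05, 15.1 and 23.8 CPM in OIR at P30. The groups were apart at both ages, with effects of 7.55 and 2.16 (adjusted p = 0.000172 and 0.0297, edgeR). The OIR level did not move with age (0.02 on the log2 scale, not called), and the control level rose by 5.41 from nearly no reads, so the reduction of -5.39 came with a rise of the control level. Lad1, which encodes ladinin 1, behaved alike, from 5.55 to 2.15 with a control rise of 2.72. Fgf2, a growth factor that protects photoreceptors, was reduced from 3.01 to 1.40, with 12.2, 17.5 and 27.3 CPM in OIR P17 and 9.17, 11.1 and 10.54 CPM in OIR P30. The antisense gene Fgf2os overlaps it and had a called reduction too, which was lost in 14 of 26 settings, including 8 of the 12 fits that left out 1 library (all but those without OIR P17 replicate 1, control P30 replicate 3, OIR P30 replicate 1 or OIR P30 replicate 3). The strand used in counting is not stated, so reads of this pair cannot be told apart. Edn2 and Fgf2 lost their calls with the Y-linked covariate and Lad1 kept its call.

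Microglial and complement genes were mostly raised in OIR at P17, and 1 of 21 and 2 of 15 had a called lower effect at P30, against 3.62% of all tested genes. Over all tested genes 8.13% were higher in OIR at P17 and 3.98% at P30. Of 21 microglia and macrophage genes, 15 were higher in OIR at P17 and 6 at P30, and 1, Lgals3, had a called difference by edgeR, against 3 by DESeq2. Trem2, a lipid receptor of activated microglia, had 2.90, 3.35 and 3.04 CPM in control and 5.94, 6.79 and 10.7 CPM in OIR at P17, then 2.14, 1.90 and 1.39 CPM in control and 3.75, 5.96 and 7.26 CPM in OIR at P30. OIR was above control in all libraries at both ages, with effects of 1.34 and 1.63 and a difference of 0.29 (95% interval -0.49 to 1.07, adjusted p = 0.658, edgeR). Tyrobp, the signalling adaptor of TREM2, stood at 1.63 and 1.45, and Cd68, a lysosomal protein of phagocytes, at 2.52 and 1.59. The P30 call of Tyrobp was lost in 14 of 27 settings and that of Cd68 in 17, including 8 and 9 of the 12 fits that left out 1 library. Those of Tyrobp were control P17 replicate 1 or 3, OIR P17 replicate 2, any control P30 library, and OIR P30 replicate 2 or 3, and those of Cd68 were the same and OIR P17 replicate 1. Lgals3, galectin 3, went from 2.59 to 0.23 while its control level rose by 2.74 with age. Its call was lost with the Y-linked covariate, where no microglia and macrophage gene was called. Of 15 complement genes, 12 were higher in OIR at P17 and 5 at P30, and 2 had a lower effect at P30 by edgeR, against 4 by DESeq2 and 0 with the Y-linked covariate. C4b, complement component 4, had 2.63, 1.29 and 2.48 CPM in control and 31.7, 62.7 and 55.8 CPM in OIR at P17, then 15.98, 13.8 and 16.1 CPM in control and 44.1, 74.9 and 119.9 CPM in OIR at P30. It was persistent, at 4.55 and 2.38, with a difference of -2.17 just outside the threshold (adjusted p = 0.0527, edgeR), and reads shared with its near copy C4a could be split in counting. C3, the central component, stood at 2.04 and 1.52, and Serping1, the C1 inhibitor, was reduced from 2.10 to 0.96. The P30 calls of C3 and C4b were each lost without any 1 of the 3 control P30 libraries. The Serping1 call was lost in 11 of 26 settings, including the fits without control P17 replicate 1 or 2, OIR P17 replicate 2 or 3, or control P30 replicate 1 or 3, with differences from -1.34 to -0.99. Of 26 interferon response and antigen presentation genes, 10 were higher at P17 and 4 at P30, and none had a called difference by edgeR or DESeq2.

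Of 26 cell division and DNA replication genes, 16 were higher in OIR at P17 and 1 at P30, and 9 had a lower effect at P30 (median difference -1.11). For this list and the next, the shares of all tested genes were 8.13%, 3.98% and 3.62%. Mki67, the marker of cycling cells, had 0.663, 0.467 and 1.09 CPM in control and 5.12, 2.93 and 3.15 CPM in OIR at P17, then 0.471, 0.439 and 0.801 CPM in control and 0.424, 0.871 and 0.262 CPM in OIR at P30. Only the P17 groups were apart, and the difference was -2.43 (SE 0.591, adjusted p = 0.0231, edgeR). It lost its call without control P17 replicate 2, OIR P17 replicate 1 or control P30 replicate 3, with values from -3.02 to -2.13. Ccnb1, cyclin B1, and Ube2c, a ubiquitin-conjugating enzyme of mitosis, went from 1.88 and 2.78 to -0.74 and 0.19. Ccnb1 lost its call without control P30 replicate 2 or 3. None of the 26 was called with lens share or Y-linked reads as a covariate. Of 21 immediate early genes, 15 were higher at P17 and 4 at P30, and 9 had a lower effect at P30 (median difference -1.29). Maff, a small bZIP factor, had 0.442, 0.302 and 0.661 CPM in control and 3.33, 2.15 and 4.93 CPM in OIR at P17, then 1.98, 2.28 and 1.67 CPM in control and 0.908, 0.871 and 1.36 CPM in OIR at P30. Its OIR libraries were all above control at P17 and all below at P30, although the P30 effect of -0.94 was not called, and the difference was -3.85 (SE 0.473, adjusted p = 0.000865, edgeR). At P30 separation in either direction held in 30.7% of all tested genes. Egr3, a zinc finger factor, went from 3.25 to -0.16, and Nr4a3, an orphan nuclear receptor, was late, at 0.60 and -1.61. Maff, Egr3 and Nr4a3 kept their calls under all 26 settings, and they were the 3 members called with the Y-linked covariate.

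Several of the largest resolved effects came with a rise of the control level. S100a6, a calcium-binding protein, had 3.00, 3.46 and 3.60 CPM in control and 18.2, 25.9 and 21.9 CPM in OIR at P17, then 11.1, 21.6 and 16.05 CPM in control and 12.7, 22.2 and 15.6 CPM in OIR at P30. Control rose by 2.28 with age and the OIR change of -0.39 was not called, so the P30 groups overlapped at near the OIR P17 level. Gpx3, a secreted glutathione peroxidase, had 5.63, 6.82 and 6.41 CPM in control and 13.0, 30.4 and 28.4 CPM in OIR at P17, then 170.0, 92.5 and 105 CPM in control and 89.3, 86.8 and 60.2 CPM in OIR at P30. Its level rose with age in both, by 4.29 in control and 1.71 in OIR. Nupr1, a stress-induced chromatin protein, had 1.87, 6.79 and 7.80 CPM in control P17 and 86.0, 146 and 132 CPM in control P30, against 54.2, 55.5 and 26.2 CPM in OIR P17 and 73.0, 125 and 83.1 CPM in OIR P30. Lens genes moved the same way, with a median rise of 3.86 in control with age and a median difference of -3.92, and of the 21 tested lens genes edgeR called no difference while DESeq2 called 7 lower. The difference of S100a6 stayed called in all 26 settings and that of Gpx3 was called with the lens covariate and lost with the Y-linked covariate. The Nupr1 call was lost in 10 settings, among them the Y-linked covariate. It was also lost without control P17 replicate 2, OIR P17 replicate 1 or 2, control P30 replicate 2 or 3, or OIR P30 replicate 1. The Nupr1 difference ran from -3.77 to -3.01 with 1 library left out and reached -2.17 among the other settings. OIR P17 replicate 3, with the least lens RNA of its group (0.359% of reads), had the lowest Nupr1 level of that group, 26.2 CPM. The lowest S100a6 and Gpx3 levels of that group, 18.2 and 13.0 CPM, were in replicate 1, which had the most lens RNA (8.24%). A lens origin of these reads was not tested.

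Among cholesterol synthesis genes every called difference was in the opposite direction, towards a higher effect at P30, by edgeR and by DESeq2. Of 21 members, 12 were lower and 1 higher in OIR at P17, while at P30 3 were higher and none lower. Among all tested genes 5.83% were lower and 8.13% higher at P17, and 3.98% were higher at P30. The effect was higher at P30 in 8 (4.43% of all tested genes) and lower in none (median difference 0.44). Of 21 differences 20 were positive, against 9098 of 18854 over all tested genes. Mvk, mevalonate kinase, had 40.8, 62.6 and 51.8 CPM in control and 33.2, 33.6 and 35.5 CPM in OIR at P17, then 49.0, 42.3 and 52.5 CPM in control and 62.0, 64.1 and 86.8 CPM in OIR at P30. OIR libraries were all below control at P17 and all above at P30, and the effect reversed from -0.60 to 0.56 (difference 1.17, SE 0.214, adjusted p = 0.00673, edgeR). Srebf2, the transcription factor that drives the pathway, resolved from -0.47 to 0.19. With the Y-linked covariate 3 members were called higher and none lower, and Srebf2 kept its call while Mvk lost its call.

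Ganglion cell genes had the largest share of members with a higher effect at P30 among the retinal cell and pathway lists compared. Of 18 tested, 8 were lower in OIR at P17 and none higher, and at P30 2 were higher and none lower. Over all tested genes 5.83% were lower at P17 and 3.98% higher at P30. The effect was higher at P30 in 11, against 4.43% of all tested genes (median difference 0.59). Nefl, the light neurofilament chain of ganglion cell axons, had 683, 778 and 696 CPM in control and 459, 506 and 461 CPM in OIR at P17, then 587, 549 and 569.5 CPM in control and 618, 648 and 835 CPM in OIR at P30. OIR libraries were all below control at P17 and all above at P30, where the effect of 0.30 was not called (adjusted p = 0.122, edgeR). The difference was 0.90 (SE 0.166, 95% interval 0.54 to 1.25, adjusted p = 0.00673, edgeR). Nefh, the heavy chain, went from -0.79 to -0.10 and Nefm, the medium chain, from -0.68 to -0.01. Isl1, a homeobox factor of ganglion, bipolar and starburst amacrine cells, had 118, 125 and 128 CPM in control and 90.8, 89.2 and 80.0 CPM in OIR at P17, then 67.6, 65.5 and 67.6 CPM in control and 105, 94.6 and 85.4 CPM in OIR at P30. Its order reversed in all libraries, from -0.51 to 0.50 (adjusted p = 0.00152 and 0.0105, edgeR). The OIR level of Isl1 did not change with age by the test, and the control level fell by 0.89.

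By edgeR, called differences in lists of other inner retinal neurons were all towards a higher effect at P30, while DESeq2 also called 1 synaptic gene lower. Of 20 amacrine and horizontal cell genes, 10 were lower in OIR at P17, and 4 had a higher effect at P30. For this list and those that follow here, the shares of all tested genes were 5.83% and 4.43%. Slc32a1, which loads GABA and glycine into vesicles, had 208, 204 and 215 CPM in control and 156, 158 and 159.8 CPM in OIR at P17, then 252, 242 and 241 CPM in control and 291, 298 and 316 CPM in OIR at P30. It reversed from -0.40 to 0.30, with no overlap at either age. Slc18a3, the vesicular acetylcholine transporter of starburst cells, reversed from -0.60 to 0.55, and Chat, the enzyme that makes acetylcholine, went from -0.36 to 0.23. Of 17 bipolar cell genes, 8 were lower at P17 and 4 had a higher effect at P30. All 17 differences were positive, against 9098 of 18854 over all tested genes. Nyx, the nyctalopin of ON bipolar dendrites, went from -0.46 to 0.13, and its call was lost in 13 of 26 settings, including library totals and 8 of the 12 fits that left out 1 library (all but those without control P17 replicate 1, control P30 replicate 1, OIR P30 replicate 1 or OIR P30 replicate 3). Of 27 synaptic genes, 10 were lower at P17 and 4 had a higher effect at P30, and Cplx1, complexin 1, went from -0.59 to 0.27. Of 12 immature neuron genes, 4 were lower at P17 and 4 had a higher effect at P30. Marcksl1, an actin regulator of growing neurites, had 111, 156 and 141 CPM in control and 76.9, 91.7 and 80.7 CPM in OIR at P17, then 42.1, 44.9 and 42.3 and 52.3, 50.6 and 56.1 CPM at P30. It fell with age in both groups, by 1.66 in control and by 0.65 in OIR. With the Y-linked covariate 3 ganglion, 1 amacrine and horizontal, 1 bipolar, 0 synaptic and 3 immature neuron genes were called higher at P30. Leaving out the 2 OIR P17 libraries richest in lens RNA leaves 1 library in that group, so no calls are given for it. The median differences of these lists, in the same order, were then 0.65, 0.38, 0.34, 0.17 and 0.41.

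Of 21 rod genes edgeR called none at P17, at P30 or for the difference, while DESeq2 and the fit of all 16 libraries each called 1 member higher. Their median difference was 0.04. Of 12 cone genes none had a called difference by edgeR, while DESeq2, the fit of all 16 libraries and the fit with the lens covariate each called 1 member lower, and at P30 2 were higher and 1 lower in OIR. Of 15 genes of resting Müller glia, 6 were lower and 1 higher in OIR at P17, and 3 were higher at P30. A higher effect at P30 was called in 2, and in 1 of them with the Y-linked covariate. In the same order the shares of all tested genes were 5.83%, 8.13%, 3.98% and 4.43%. Gpr37, a receptor for prosaposin, had 268, 313 and 285 CPM in control and 204, 256 and 215 CPM in OIR at P17, then 215, 197 and 205 CPM in control and 338, 322 and 402 CPM in OIR at P30, and reversed from -0.36 to 0.78 (difference 1.14, SE 0.158, adjusted p = 0.0013, edgeR). Rlbp1, the retinal-binding protein CRALBP, went from -0.43 to 0.23.

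**Figure D4:**
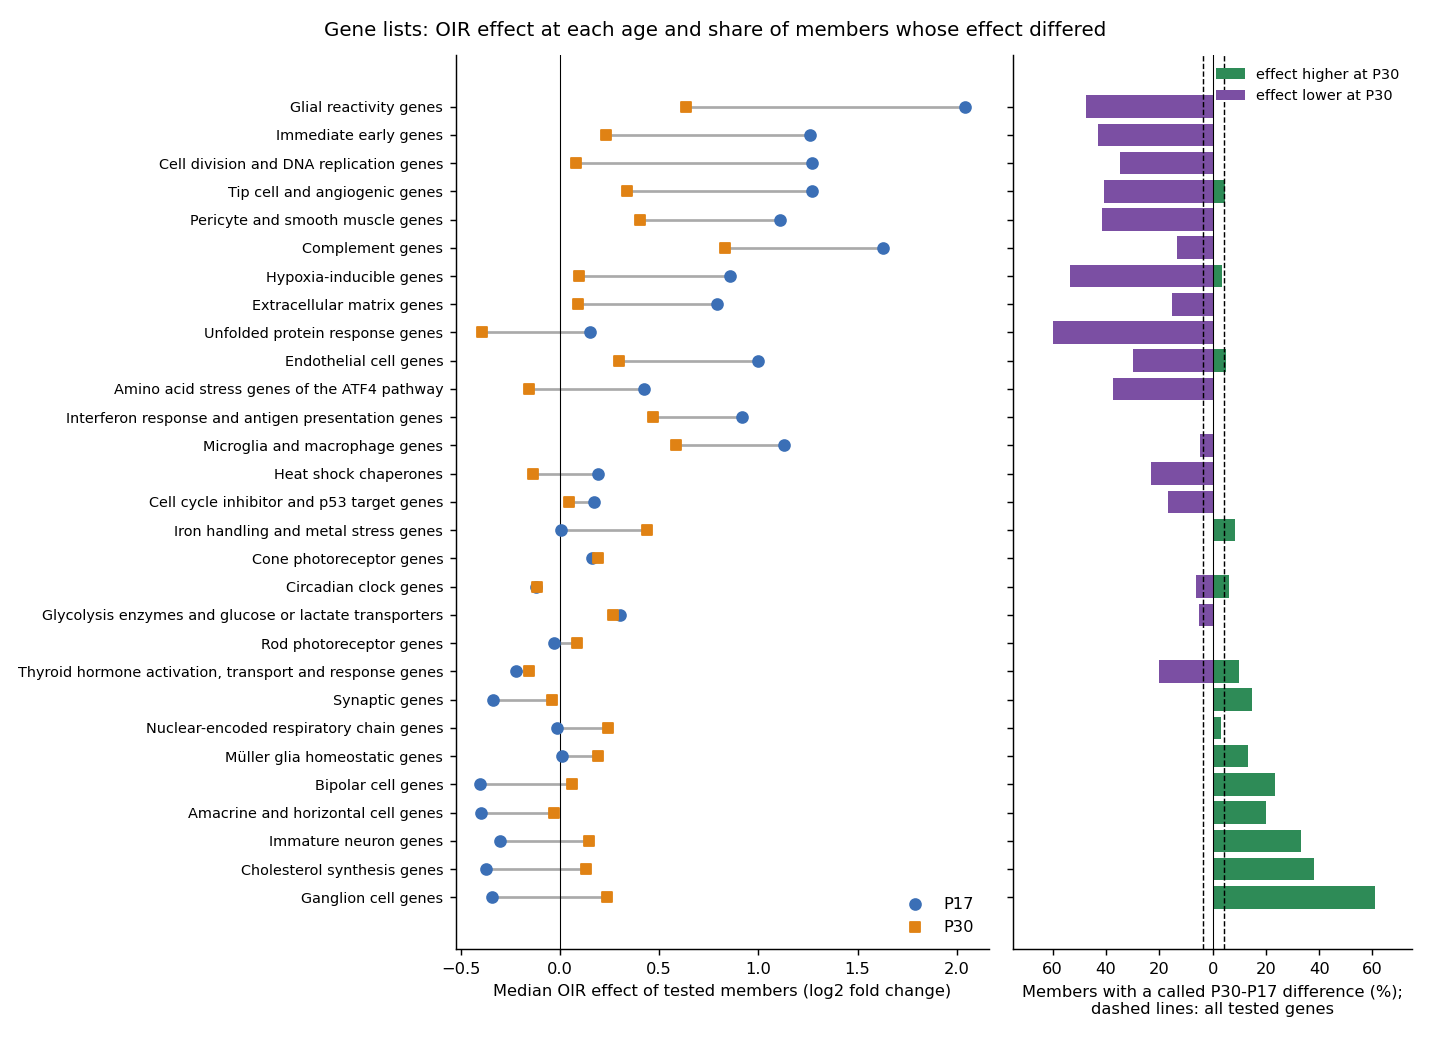
Left, median OIR effect (log2 fold change) of the tested members of each plotted list at P17 (circles) and P30 (squares). Lists of other tissues, such as lens and blood, of sex RNAs and of chemokines are not plotted. Right, the percentage of members whose effect was called lower (left of 0) or higher (right of 0) at P30, with dashed lines at the 3.62% and 4.43% of all tested genes. Glial, immediate early, cell division and vascular lists move left, and cholesterol and inner retinal neuron lists move right.

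The 49 genes that reversed from lower to higher were led by Kcne1l. This gene encodes a subunit of potassium channels and lies on the X chromosome. It had 12.5, 19.4 and 12.3 CPM in control and 6.36, 6.88 and 5.97 CPM in OIR at P17, then 6.47, 6.15 and 5.19 CPM in control and 10.4, 8.84 and 13.7 CPM in OIR at P30. Its groups were apart at both ages in opposite order, with effects of -1.20 and 0.88 and a difference of 2.08 (SE 0.271, adjusted p = 0.00111, edgeR) that stayed called with the Y-linked covariate. X-linked genes made up 3.08% of the reversed, 3.51% of the resolved and 2.11% of the late genes with a known chromosome, against 4.54% of all tested genes. Dpysl4, a collapsin response mediator of growing axons, reversed from -0.57 to 0.60, with 215, 255 and 236 CPM in control and 160.2, 166 and 149.9 CPM in OIR at P17 and 152, 141 and 139.9 and 199, 198 and 259 CPM at P30. Pik3r5, a regulatory subunit of PI3 kinase gamma, reversed from -0.90 to 0.61. Among genes resolved from lower, Kcnk9, a leak potassium channel, had 8.36, 6.65 and 8.59 CPM in control and 2.72, 2.33 and 2.39 CPM in OIR at P17 and overlapped at P30, going from -1.67 to -0.14.

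Late genes had median P30 effects of 0.55 in the 200 higher and -0.54 in the 152 lower genes. Rbm3, a cold-inducible RNA-binding protein, had 56.8, 63.8 and 48.7 CPM in control and 55.3, 49.0 and 46.8 CPM in OIR at P17, which overlapped. By P30 it stood at 32.8, 25 and 39.3 CPM in control and 58.1, 65.6 and 82.4 CPM in OIR, with all OIR libraries above control. The effect was -0.16 at P17 and 1.08 at P30, a difference of 1.25 (SE 0.228, adjusted p = 0.00685, edgeR). Nrtn, the neurotrophic factor neurturin, went from -0.42 to 1.31, and Mt3, a metallothionein of brain and retina, from -0.20 to 0.84. Dbp, a transcription factor with a daily rhythm, went from -0.14 to 0.49, and the time of day of dissection is not given in the sources used here. Among late lower genes, Plin4, a lipid droplet protein, had 0.663, 0.880 and 0.826 CPM in control and 0.963, 1.67 and 1.71 CPM in OIR at P17, then 9.17, 6.82 and 6.30 CPM in control and 2.85, 4.82 and 2.97 CPM in OIR at P30. It rose with age in both groups, by 3.24 in control and 1.28 in OIR, and the effect at P30 was -1.06. Arrdc2, an arrestin-like adaptor, was late at 0.52 and -1.39 with a control rise of 2.63. Rbm3, Nrtn, Mt3, Dbp, Plin4 and Arrdc2 all lost their call with the Y-linked covariate, and Dbp also lost it without control P30 replicate 2.

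Dio2 was the only gene whose effect was called at both ages with the same sign and called as larger at P30. It lies at chr12:90724552-90738438 in GRCm38 and encodes the deiodinase that turns thyroxine into active thyroid hormone. It had 33.8, 38.6 and 32.8 CPM in control and 23.9, 23.1 and 21.6 CPM in OIR at P17, then 52.3, 58.1 and 44.5 CPM in control and 13.8, 13.8 and 15.4 CPM in OIR at P30. OIR libraries were below every control at both ages. The effect was -0.62 at P17 (adjusted p = 0.0015) and -1.85 at P30 (adjusted p = 7.56e-07, edgeR), a difference of -1.24 (SE 0.154, 95% interval -1.56 to -0.91). With age the level rose by 0.56 in control and fell by 0.68 in OIR, and the call stayed under all 26 settings. Of 10 genes of thyroid hormone activation, transport and response, the difference was called lower in 2, Dio2 and Dio3, and higher in 1, Thra. Among all tested genes it was called lower in 3.62% and higher in 4.43%. Dio3, which inactivates thyroid hormone, went from 0.80 to -0.39, and its call was lost in 17 of 26 settings, including 9 of the 12 fits that left out 1 library (all but those without control P17 replicate 3, control P30 replicate 2 or OIR P30 replicate 2). Thra, a thyroid hormone receptor, went from -0.35 to 0.25, and its call was lost in 10, including the fits without control P17 replicate 2, OIR P17 replicate 2 or 3, or any 1 control P30 library. Slco1c1, the thyroxine transporter of brain endothelium, was persistent and lower, with 12.5, 11.8 and 12.3 CPM in control and 5.23, 7.28 and 5.25 CPM in OIR at P17 and 6.63, 8.08 and 7.10 and 4.75, 4.49 and 3.80 CPM at P30, effects of -1.04 and -0.74, and a difference of 0.31 (95% interval -0.16 to 0.77) that was not called. The P30 call of Slco1c1 was lost without any 1 of the 3 control P30 libraries.

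At the threshold itself, Abtb1 (difference 0.44, adjusted p = 0.0496) and Naa16 (-0.99, adjusted p = 0.049999) were the last genes called by edgeR. Sostdc1 (0.88) and Brd9 (-0.43) were the nearest ones that were not.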

How the data were processed

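Total RNA of whole retina was selected for mRNA and sequenced on an Ion Proton instrument, per the labels' protocols. Reads were aligned to mm10 with STAR and then Bowtie2, and counted per gene with HTSeq, per the submitters' processing notes. The deposited values are raw counts per gene, with 1 column per library and 43280 genes. Strand handling is not given in the sources used here, so overlapping genes are uncertain.

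All p-values come from edgeR 4.0.16 (R 4.3.3): filterByExpr over the 4 groups, TMM scaling, robust quasi-likelihood fit of the 12 libraries with 8 residual degrees of freedom, and Benjamini-Hochberg adjustment over the 18854 tested genes, called at an adjusted p under 0.05. The difference between ages was (OIR P30 minus control P30) minus (OIR P17 minus control P17). Per-library values are CPM on the TMM-scaled library size. Alternatives used DESeq2 1.42.0, limma-voom 3.58.1, other scalings, filters, covariates and left-out libraries.

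Members, gene lists and tests were chosen with earlier results of these data known. Genes were named by rule: the largest differences per class at an average log2 CPM of at least 1, the list members with the smallest p, and a few fixed genes of the model. Ddit4 and Kdr fall outside it. Some genes that the rule names are not reported here, but counts over lists and classes include them. Counts limit the precision of low genes such as Epo and Esm1.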

Additional observations from a re-analysis of the deposited data

Results flagged for a closer look

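The OIR effect differed between P17 and P30 by the test of the difference itself in 835 genes that were higher at P30 and 683 that were lower. The named genes whose effect was called with opposite signs at the 2 ages are listed here by that difference, on the log2 scale, by edgeR at an adjusted p under 0.05, and the cause was not tested for any.

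Among those that turned from higher to lower in OIR, the difference was -4.04 for Igfbp3, -2.76 for Eif4ebp1, -2.32 for Angptl2 and -2.27 for Cdkn1a. It was -1.52 for Arrdc3, -1.46 for Lrrc8c, -1.43 for Tac1, -1.24 for Xbp1 and -0.87 for Hsp90b1.

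Among those that turned from lower to higher, the difference was 2.08 for Kcne1l, 1.51 for Pik3r5, 1.35 for H1fx, 1.3 for Igdcc3, 1.19 for Mgst3, and 1.17 for each of Dlgap3, Dpysl4 and Mvk. It was 1.16 for Slc18a3, 1.14 for Gpr37, 1.02 for Isl1 and 0.70 for Slc32a1.

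The P14 libraries, which the comparison leaves out, held a signal for a reversed gene. Igfbp3 was at 34.4 and 26.2 CPM of the library total in the 2 OIR P14 libraries, against 7.07 and 8.27 CPM in the 2 control P14 libraries. These values were not tested.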

How the results depend on the processing

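Counts of higher, lower, late, persistent, resolved and reversed genes were 835, 683, 352, 183, 824 and 67, and those that moved by over 1.5-fold are given here. Scaling by library totals gave 174 late, 86 persistent and 30 reversed genes. No count filter gave 1402 lower, 648 late, 306 persistent and 147 reversed. DESeq2 gave 1462 higher, 1029 lower, 731 late, 322 persistent and 166 reversed, and limma-voom 115 persistent. All 16 libraries gave 108 reversed. Each age fitted alone gave 38 late, 10 persistent and 4 reversed. An adjusted p under 0.01 gave 164, 146, 27, 9, 209 and 2 in the order above, and a test against a 1.5-fold change 6, 52, 1, 0, 49 and 0. Lens share as a covariate gave 377, 281, 142, 86, 383 and 35. Leaving out the 2 OIR P17 libraries richest in lens RNA gave 143, 207, 50, 69, 235 and 11. Y-linked reads as a covariate gave 80, 78, 30, 7, 19 and 1. Requiring intervals inside 1.5-fold gave 526 resolved and 76 persistent. The cause was not tested.

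Leaving out 1 library gave 337 to 1019 higher, 338 to 854 lower, 40 to 420 late, 10 to 242 persistent, 462 to 1233 resolved and 5 to 66 reversed genes. Higher genes moved by over 1.5-fold without control P17 replicate 2 (444), OIR P17 replicate 2 (468) or 3 (505), or control P30 replicate 1 (498), 2 (337) or 3 (397). Lower genes did so without control P17 replicate 2 (418), OIR P17 replicate 1 (445), 2 (453) or 3 (445), or control P30 replicate 1 (409), 2 (338) or 3 (362). Late genes did so without control P17 replicate 3 (232), OIR P17 replicate 1 (216), 2 (175) or 3 (213), or control P30 replicate 1 (65), 2 (40) or 3 (112). Persistent genes did so without control P17 replicate 1 (94) or 3 (105), OIR P17 replicate 1 (120) or 3 (112), control P30 replicate 1 (23), 2 (10) or 3 (47), or OIR P30 replicate 3 (99). Resolved genes did so without control P17 replicate 2 (462), OIR P17 replicate 3 (525), or control P30 replicate 2 (478) or 3 (482). Reversed genes did so without control P17 replicate 3 (32), OIR P17 replicate 1 (40), 2 (33) or 3 (29), or control P30 replicate 1 (10), 2 (5) or 3 (11).

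Replicate numbers are shared by the groups, and deviations of same-numbered libraries correlated from -0.253 to 0.218, against -0.266 to 0.287 for other pairs. These similar ranges gave no sign that the numbers pair the libraries. With 3 libraries per group, the check cannot exclude that they do. With the replicate block there were 658 higher, 555 lower, 263 late, 152 persistent, 681 resolved and 35 reversed genes.

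Of 136 named differences between ages and 19 named P30 effects, none changed sign in any setting. With Y-linked reads as a covariate 46 differences and 14 effects stayed called, with lens share 97 and 16, and with DESeq2 136 and 19. Scaling moved the median difference of all genes to between -0.07 and 0.00. Lens RNA and sex moved with the groups, and depth limits genes below about 1 CPM.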

Other observations

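Of 26 extracellular matrix genes tested, 9 were higher in OIR at P17 and 1 at P30 (8.13% and 3.98% of all tested genes). The median difference was -0.67. In 4 members the effect was lower at P30, against 3.62% of all tested genes. They were Postn, a matricellular protein of remodelling tissue, from 1.39 to -0.18, Bgn, the proteoglycan biglycan, from 2.08 to 0.04, Fn1, fibronectin, from 1.99 to 0.78, and Sparc, a collagen-binding glycoprotein, from 0.80 to 0.17. With lens share as a covariate 2 members were called, and with Y-linked reads 1. The Fn1 call was lost in 14 of 26 settings, including 9 of the 12 fits that each left out 1 library (all but those without OIR P17 replicate 2, control P30 replicate 3 or OIR P30 replicate 2), where its difference ran from -1.41 to -1.01. The Sparc call was lost in 15, including 9 of those 12 (all but those without control P17 replicate 2, OIR P30 replicate 2 or OIR P30 replicate 3), where its difference ran from -0.73 to -0.52.

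Of 19 glycolysis genes, 1, Pfkp, a phosphofructokinase, had a called difference by edgeR, from 0.99 to 0.04. Its control level rose with age by 0.92, and its OIR change of -0.02 was not called. DESeq2 called 1 glycolysis gene higher and 2 lower, and the fit of all 16 libraries called 1 higher and 1 lower. With the Y-linked covariate none was called. Here and for the lists below, the share of all tested genes with a called difference was 8.05%. Of 32 nuclear-encoded respiratory chain genes, 1, Cox6a1, a subunit of cytochrome c oxidase, had a called difference by edgeR, from -0.15 to 0.65. Of the 32 differences 27 were positive, against 9098 of 18854 over all tested genes, and their median was 0.26. DESeq2 called 5 of the 32 genes higher. With the Y-linked covariate the median was 0.06 and none of the 32 was called. Of 16 circadian clock genes, 1 had a higher and 1 a lower effect at P30, Dbp and Ciart. DESeq2 called 3 clock genes higher and 2 lower, and none was called with lens share or Y-linked reads as a covariate. The Ciart call was lost in 10 of the 12 fits that left out 1 library (all but those without control P30 replicate 2 or OIR P30 replicate 3), where its difference ran from -0.80 to -0.54. Of 12 iron handling and metal stress genes, edgeR called 1 difference, that of Mt3, which was higher. DESeq2, the fit of all 16 libraries and the fit with the lens covariate each also called 1 member lower.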
